A study of Mus musculus with 31 samples.

Results

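Genes read almost only from B6 were autosomal genes whose allele-assigned RNA bases in hybrid mouse cortex nearly all carried the B6 base, whichever parent was B6. They were chosen on measured values: at least 200 read bases in each of 2 reciprocal crosses, pooled over E13.5 and P0 cortex, and a B6 share of at least 90% in both crosses, with symbols beginning Rpl or Rps left out. The rule found 46 of the 9645 autosomal features past the read base minimum, and 17484 features were listed at any stage. The mirrored rule for JF1 found 13. A read base is a sequenced base at a position where the strains differ, so a read that crosses several such positions adds several read bases.

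The animals and cells were F1 hybrids of C57BL/6J (B6) and JF1. BJ1 hybrids had a B6 mother, so their B6 allele is maternal, and JB6 hybrids had a JF1 mother, so it is paternal. Each cross gave 2 libraries of embryonic stem cells (ESCs), 2 of cells after 12 days of cortical differentiation and 2 after 21 days. The in vivo tissue, called DT at E13.5 and Ctx at P0 in the labels, gave 3 libraries per cross at E13.5, and 4 BJ1 and 3 JB6 libraries at P0. The ESCs were derived from hybrid blastocysts whose B6 parent carried an Oct4-GFP transgene, a fluorescent reporter driven by the promoter of the pluripotency gene Pou5f1, whereas the in vivo hybrids had parents of the pure strains, per the authors' description. Differentiating cells of both crosses received cyclopamine, a Hedgehog inhibitor, early in culture. All 12 culture libraries were labelled male and 11 of the 13 cortex libraries female. The labels do not give the number of cell lines per cross, so in culture cross and line cannot be told apart, and nothing states whether replicates came from separate cultures or animals. P-values measure the spread between these samples, which may be technical. A further 6 libraries of E14 cells, which are not hybrids, were not analysed here.

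Depth was 5192382 to 8618253 read bases per library. Levels are given as CPM, the read bases of both alleles scaled to 1e6 read bases in the library. As a tissue check, the 5 pluripotency markers in the tables summed to 1420 to 2811 CPM in ESC libraries and to at most 3.71 CPM in cortex. The 6 cortical neuron markers summed to 744 to 1153 CPM at day 21, to 498 to 951 CPM at E13.5 and to 5898 to 6713 CPM at P0.

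In an F1 hybrid every autosomal gene is present as a B6 and a JF1 allele, and most genes are transcribed from both. Reciprocal crosses separate a difference that follows the strain from imprinting, in which it follows the parent. Many housekeeping genes also have processed pseudogenes, copies of their spliced mRNA that were inserted elsewhere in the genome, and short reads of a gene and of a near-identical copy are hard to tell apart.

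Among the 12 of the 46 genes with the most read bases were the chromatin proteins Hmgb1, H3f3a and Hmgn2, the ubiquitin gene Ubb and the ubiquitin-like modifier Sumo2, the RNA-binding proteins Hnrnpf and Nhp2l1, and the chaperones Hspa8 and Dnajb6. Annotated copies were sought with the longest coding sequence of each gene, or its longest transcript where it codes for no protein, among the GENCODE M21 transcripts of GRCm38. A copy was a gene that does not overlap it, is not part of the same joined feature and covers at least 50% of that sequence at 90% identity or more. Sequences of 4 of the 46 genes are shown beside 1 copy each, because these stretches show how close the copies are. The fifth pair is Hba-a1 and Hba-a2, the 2 genes that the deposited tables count as 1 joined feature, so their read bases are not given separately. Each is the first 90 aligned bases, 5′ to 3′, from GENCODE M21, and capitals mark bases that differ within a pair. No position of a strain difference is marked, because the deposited tables give only how many were covered.
H3f3a, histone variant H3.3, chromosome 1: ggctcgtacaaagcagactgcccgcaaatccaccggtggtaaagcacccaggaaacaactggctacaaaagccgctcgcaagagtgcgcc
Gm6421, processed pseudogene, chromosome 13: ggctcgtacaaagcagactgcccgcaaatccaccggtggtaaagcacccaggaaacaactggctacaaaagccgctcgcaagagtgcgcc
Hmgb1, chromosome 5: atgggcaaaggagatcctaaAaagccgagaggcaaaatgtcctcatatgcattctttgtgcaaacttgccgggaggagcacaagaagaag
Gm15387, processed pseudogene, chromosome 15: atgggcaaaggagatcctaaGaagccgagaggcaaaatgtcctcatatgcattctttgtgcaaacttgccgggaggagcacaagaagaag
Cdc26, chromosome 4: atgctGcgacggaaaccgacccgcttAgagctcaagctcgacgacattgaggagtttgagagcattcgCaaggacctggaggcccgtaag
Gm9174, processed pseudogene, chromosome 14: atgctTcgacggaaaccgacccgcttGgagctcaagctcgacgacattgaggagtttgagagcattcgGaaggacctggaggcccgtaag
Supt4h1, chromosome 11: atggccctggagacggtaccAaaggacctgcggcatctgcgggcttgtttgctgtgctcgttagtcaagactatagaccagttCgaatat
Supt4b, processed pseudogene, chromosome 10: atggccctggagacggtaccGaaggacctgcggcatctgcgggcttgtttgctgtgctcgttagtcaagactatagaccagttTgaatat
Hba-a1, adult alpha globin, chromosome 11: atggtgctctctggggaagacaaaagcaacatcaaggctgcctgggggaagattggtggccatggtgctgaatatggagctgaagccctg
Hba-a2, adult alpha globin, chromosome 11: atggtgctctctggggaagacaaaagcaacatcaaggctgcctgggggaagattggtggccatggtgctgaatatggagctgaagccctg
H3f3a and its copy, and the pair of alpha globin genes, do not differ in these 90 bases. Hmgb1 differs from its copy at 1 base, Supt4h1 at 2 and Cdc26 at 3.

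Near-identical copies were common among the 46 genes. Of the 44 matched to the annotation, 26 (59.1%) had at least 1 copy, against 904 of the 9615 matched features past the read base minimum (9.40%). At least 5 copies were found for 17 of the 44 (38.6%) and for 104 of all features (1.08%), and at least 10 for 10 of the 44 (22.7%) and 42 of all features (0.437%). In 24 of the 44 genes (54.5%) a copy was annotated as a pseudogene, against 826 of the 9615 features (8.59%). Hmgb1 had 116 copies, all pseudogenes, H3f3a had 40, Hmgn2 25, Sumo2 14, Cycs, the electron carrier cytochrome c, 11 and Hspa8 10. Read the other way, genes read almost only from B6 were 10 of the 42 features with 10 or more copies (23.8%), 7 of 62 with 5 to 9 (11.3%), 9 of 800 with 1 to 4 (1.125%) and 18 of 8711 with none found (0.207%). No test was run on these shares. Symbols beginning Rpl or Rps, left out by the rule, were left out of all these counts as well. With them kept the rule gave 48 genes, adding Rpl15 and Rpl37a. Copies of the Rpl and Rps features were not sought, so the shares by number of copies do not cover them. Whether multiply aligned reads were kept is not given in the sources used here, so the 26 genes with a copy are reported with that uncertainty, and the part of the copies in the B6 share was not tested.

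**Figure D1:**
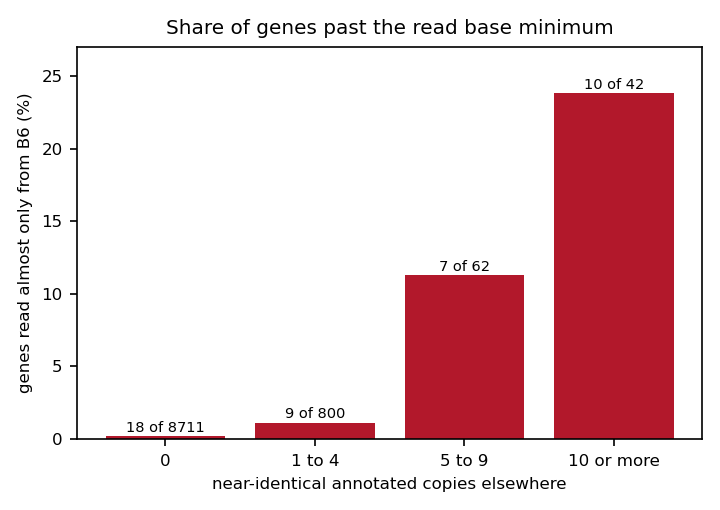
The bars give the percentage of features past the read base minimum that were read almost only from B6, by the number of near-identical annotated copies on the horizontal axis; the counts stand above the bars. The share is 0.207% where no copy was found and 23.8% with 10 or more copies. Symbols beginning Rpl or Rps are in none of the bars.

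Genes with and without a copy differed in their cortex values. Of the 26 genes with a copy, 15 had a B6 share of at least 99% in both crosses, their median number of covered strain differences was 5.5 and their median read base count was 8299. Of the 18 with no copy found, 1 reached 99% in both crosses. Their median number of covered differences lay between 13 and 14, and their median read base count was 747.5. The gene at 99% was Hba-a1,Hba-a2, whose 2 joined genes are identical over the 90 bases shown but were not counted as copies of each other. Ptma was among the 18, but only its longest annotated coding sequence was searched and GENCODE M21 lists a processed pseudogene named Ptma-ps1, so its count of 0 copies is uncertain.

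A few copies were themselves listed in the deposited tables, which allowed gene and copy to be read side by side. Of the copies listed, 14 met the read base minimum in both crosses, for 7 of the 46 genes, and 2 of the 14 were again genes read almost only from B6. Gnpda1, a deaminase of glucosamine phosphate on chromosome 18, was 97.3% B6 in BJ1 cortex and 95.9% B6 in JB6 cortex. Its copy Gm8615 on chromosome 5, identical at 99.1% of aligned bases, was 2.63% B6 in BJ1 and 2.55% B6 in JB6 cortex, and 0.229% B6 over the 1308 read bases of culture. Gene and copy were thus read from opposite strains in both crosses, and their summed cortex read bases were 66.2% B6. Gm5523, annotated as a processed pseudogene, was 91.4% and 90.8% B6 in BJ1 and JB6 cortex, while the glycolytic gene Gapdh, which matches it at 94.2% identity, was 12.2% and 11.9% B6. Because Gapdh had 52598 cortex read bases and Gm5523 had 609, the sum of both was 12.9% B6. Gm3002 and D830030K20Rik, 2 members of 1 cluster of similar genes on chromosome 14, were 93.0% and 95.9% B6 in cortex, and Gm3020,Gm8348, listed under a joined name in the same cluster, was 0.300% B6. Not all copies behaved this way, and 5 of the 14 lay between 40% and 60% B6 in both crosses.

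The values that chose the 46 genes are a description and carry no test. Their median pooled B6 share was 97.9% in BJ1 and 97.9% in JB6 cortex, against 50.7% in both for all features past the minimum. The share differed between the crosses by a median of 0.325 percentage points for the 46 genes and 1.39 points for all features. The rule held both shares of the 46 genes at 90% or more, so their smaller difference was set by the choice. In 18 genes the share was at least 99% in both crosses and in 33 at least 95%. Just inside the threshold, by the lower of the 2 crosses, lay Zfp862 at 90.7%, Timm23 at 90.2% and Optc at 90.1%, and just outside lay Cyp2d22 at 89.3%, Thrap3 at 88.5% and Srsf1 at 88.3%. Over the 46 genes summed, each of the 13 cortex libraries gave 98.6% to 98.8% B6. They held 622590 of the 62860055 cortex read bases of all features past the minimum (0.990%).

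**Figure D2:**
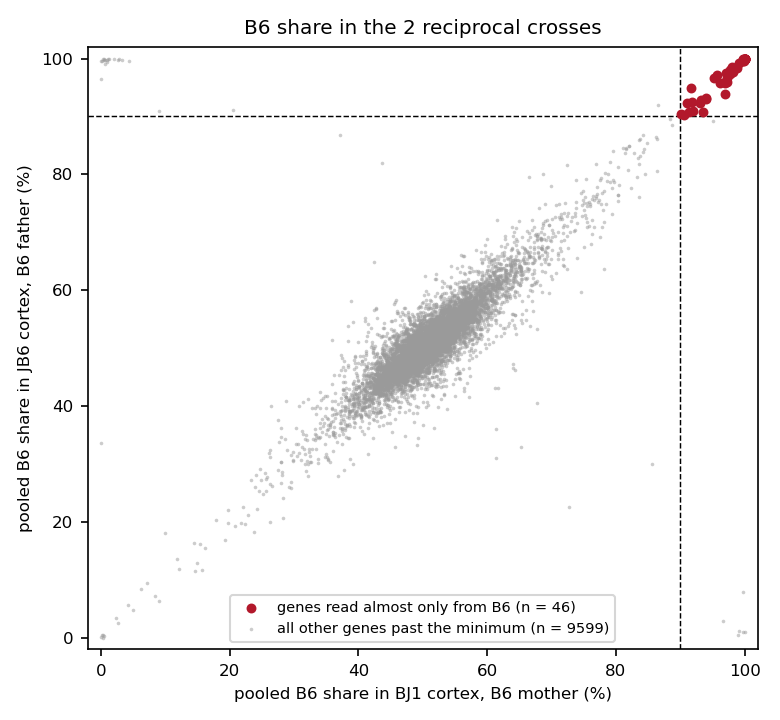
Each point is a feature past the read base minimum, with its pooled cortex B6 share in BJ1, where B6 is the mother, on the horizontal axis and in JB6, where B6 is the father, on the vertical axis. The 46 genes (red) fill the upper right corner beyond 90% in both crosses, and the other 9599 features (grey) lie mostly near 50%; the points in the upper left and lower right corners follow the parent.

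The evidence behind a share was thin for some genes and broad for others. The 46 genes had a median of 7 covered strain differences, against 13 for all features past the minimum, and 643 read bases per covered difference, against 283. For 6 genes (13.04%, against 1.78% of all features) the share rested on 1 covered difference: the chaperone Hspa8, Hba-a1,Hba-a2, Cdc26 of the anaphase-promoting complex, the transcription elongation factor Supt4h1, the stress-response transcription factor Xbp1 and Ensa. At least 20 differences were covered in 5 genes (10.9%, against 29.2%), namely Zfp862 with 42, Myo7a with 41, 4933431E20Rik with 24, and Optc and Zfp783 with 20 each. Gm3002 followed with 18, 2700054A10Rik with 17, and 8430429K09Rik and A230056P14Rik with 16 each. Predicted or RIKEN names made up 12 of the 46 (26.1%, against 6.09% of all features), and 35 of the 44 annotated genes were protein coding (79.5%, against 98.3%). Chromosome 11 held 8 of the 46 genes (17.4%) and 8.67% of all features past the minimum, and chromosomes 10 and 12 held none of the genes and 5.51% and 3.48% of all features.

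The 12 genes with the most read bases were Hmgb1, H3f3a, Hmgn2, Ubb, Hnrnpf, the phosphatase subunit Ppp1cc, Sumo2, Nhp2l1, Ptma, the noncoding RNA 2900097C17Rik, Hspa8 and Dnajb6. Ubb was 99.8% B6 in BJ1 and 99.7% in JB6 cortex, Hnrnpf 99.7% and 99.6%, Ppp1cc 99.7% and 99.7%, and 2900097C17Rik 99.8% and 99.8%. Hmgb1, Ptma and Dnajb6 were the 3 below 99%, with Ptma at 98.1% in BJ1 and 97.7% in JB6 cortex. In 5 of the 12 no library held more than 5 JF1 read bases. H3f3a had 78326 cortex read bases at 2 covered differences, and its JF1 read bases numbered 0 or 1 in each culture library and 0 to 3 in each cortex library. Hmgn2, with 5 covered differences, had 0 to 3 JF1 read bases per culture library and 0 to 5 per cortex library. Sumo2 had 0 to 5 in culture and 0 to 2 in cortex, Nhp2l1, an RNA-binding protein of small ribonucleoprotein particles, 0 to 2 and 0 to 3, and Hspa8 0 to 2 and 0 to 1. In these 5 genes JF1 was close to unread at all 5 stages. Cdc26 had no JF1 base among 1464 cortex and 1612 culture read bases, which allows a JF1 share of up to 0.205% and 0.186%. Hba-a1,Hba-a2 had none among 8450 cortex read bases, which allows up to 0.0355%. Such limits cover counting error only, since read bases are not independent molecules.

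Hmgb1, a protein that bends DNA and is bound to chromatin, had the most read bases of the 46 genes and a steady minor JF1 share over 8 covered differences. In ESCs its B6 share was 95.03% and 95.32% in BJ1 and 96.8% and 96.1% in JB6. At day 12 it was 95.2% and 94.3% in BJ1 and 95.3% and 94.5% in JB6, and at day 21 it was 95.2%, 94.7%, 94.9% and 96.0%. All 25 libraries lay between 94.3% and 96.8%, and the cortex libraries spanned 95.4% to 96.8%. Dnajb6, a co-chaperone with 7 covered differences, was 88.8% to 95.3% B6 in the 12 culture libraries and 96.6% to 98.8% B6 in the 13 cortex libraries. Every culture library of Dnajb6 was below every cortex library, a difference that was not tested because the rule used the cortex shares.

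The culture libraries were not used to choose the genes, and they were tested with edgeR's quasi-likelihood test of the strain term, with Benjamini-Hochberg adjustment over all autosomal features tested. In ESCs 31 of the 32 genes with enough reads were called higher from B6, against 26.1% of the 8991 features tested. At day 12 it was 31 of 32, against 20.5% of 10345, and at day 21 it was 32 of 33, against 19.6% of 11047. The median log2 ratio of B6 over JF1 was 6.59, 7.05 and 6.50 at the 3 stages for these genes and 0.06, 0.04 and 0.03 for all features. The genes tested were those that passed a mean of 20 read bases per library: 36 of the 46 at 1 stage or more, 29 at every stage and 10 at none. A pooled share of at least 90% was kept by 26 of 32 in ESCs, 27 of 32 at day 12 and 28 of 33 at day 21. The 2 genes not called higher from B6 were Slfn9 in ESCs, at a log2 ratio of 1.00 ± 0.425 (SE, adjusted p = 0.0602), and Myo7a at days 12 and 21, described next. Of the 8 genes under 90% at a culture stage, 5 were among the 9 tested genes with no copy found and 3 among the 26 tested genes with a copy.

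**Figure D3:**
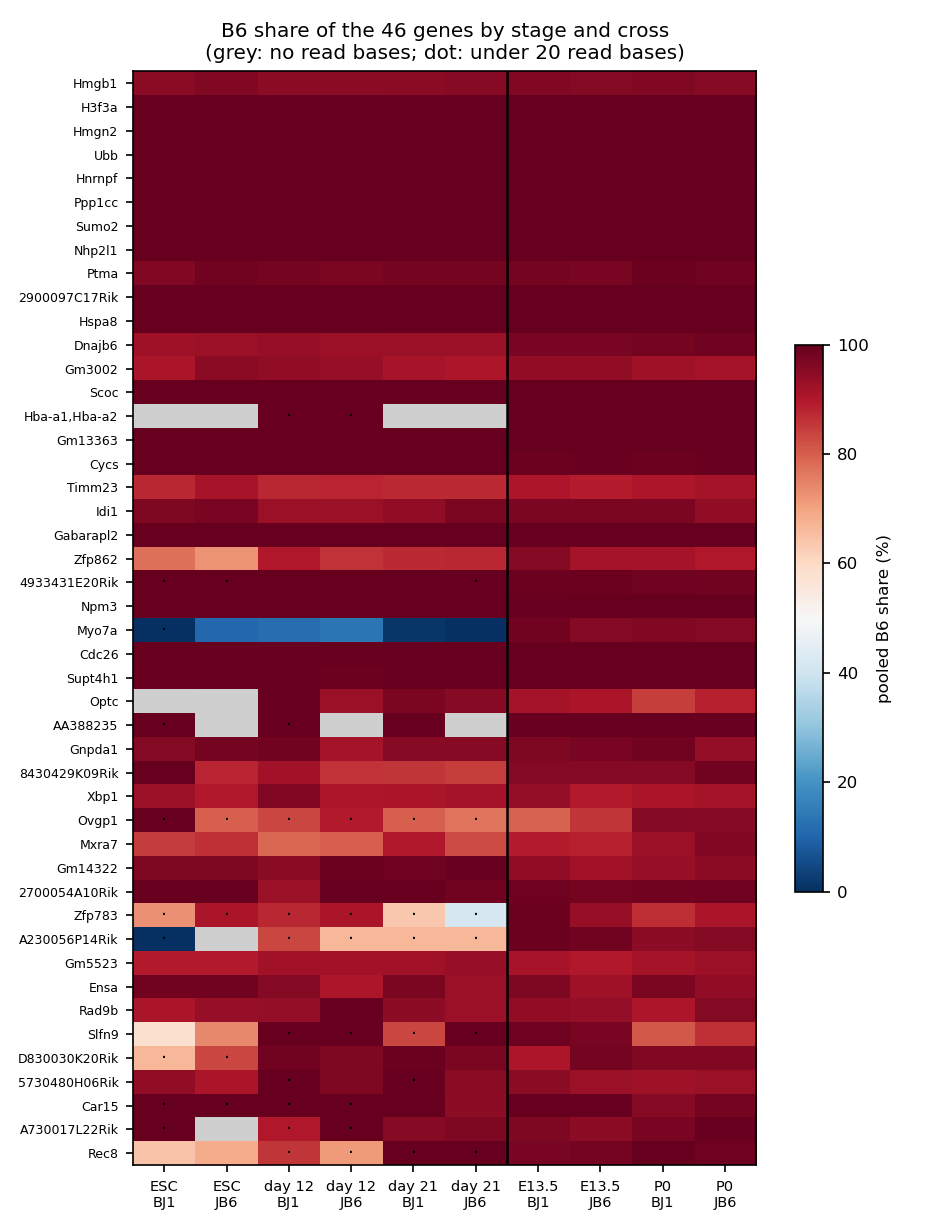
Pooled B6 share of each of the 46 genes (rows, ordered by cortex read bases) at the 5 stages in both crosses (columns), from blue at 0% to red at 100%; grey cells have no read base and dotted cells fewer than 20. Most rows are red throughout, and Myo7a is blue in the 6 culture columns and red in the 4 cortex columns.

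Myo7a, an unconventional myosin known for its role in the sensory hair cells of the inner ear, was read from opposite strains in culture and in cortex. At day 12 its B6 share was 14.9% and 8.33% in BJ1 and 15.8% and 11.8% in JB6. At day 21 the BJ1 libraries had 0 of 29 and 1 of 38 B6 read bases and the JB6 libraries 0 of 27 and 0 of 10. In E13.5 cortex its share was 100%, 98.2% and 97.1% in BJ1 and 95.6%, 95.7% and 95.8% in JB6, and in P0 cortex the 7 libraries ranged from 94.7% to 97.6%. No culture library exceeded 15.8% and no cortex library fell below 94.7%. JF1 was higher in culture, with a log2 ratio of B6 over JF1 of -2.75 ± 0.339 at day 12 (SE, edgeR adjusted p = 1.28e-14) and -6.53 ± 0.702 at day 21 (adjusted p = 9e-10). A JF1 call was made for 15.4% of features at day 12 and 14.8% at day 21. ESCs were not tested, with 0 to 34 read bases per library.

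The difference rested on many positions, since up to 26 strain differences of Myo7a were covered in culture and up to 41 in cortex. Its 4 nearest measured neighbours on chromosome 7, Rsf1, Clns1a, Mtap6 and Slco2b1, had B6 shares of 0.0547% to 31.6% in culture and 52.8% to 83.1% in cortex. The authors' description states that the B6 parent of the culture lines carried stretches of CBA or DBA sequence, and that strain differences affected by them were removed for all samples. It gives their number as 6252 in one place and 37985 in another. The part of such sequence in the Myo7a result was not tested.

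Another 7 genes were under 90% at a culture stage. Rec8, a cohesin subunit of meiosis with 7 covered differences in cortex, was 55.4% and 78.9% B6 in BJ1 and 70.7% and 65.9% in JB6 ESCs, while every cortex library lay at 92.6% or above. Its ESC log2 ratio of B6 over JF1 was 1.00 ± 0.269 (SE, edgeR adjusted p = 0.00368), and without BJ1 ESC replicate 2 it was 0.71 with an adjusted p of 0.0686. DESeq2 (log2 ratio 1.07, adjusted p = 0.0615) and limma (1.08, adjusted p = 0.0626) did not make this call either. Slfn9 of the Schlafen family was 48.9% and 69.4% in BJ1 ESCs, and 100% and 72.0% in JB6 ESCs, the 100% resting on 2 read bases. Mxra7, associated with remodelling of the extracellular matrix, was 78.2% to 80.5% B6 at day 12, where its level was highest, and 85.1% to 98.1% in cortex. Timm23, a channel subunit of the inner mitochondrial membrane, was 85.2% to 92.9% in culture and 86.9% to 92.2% in cortex, so its culture and cortex libraries overlapped. Gm5523, 8430429K09Rik and Zfp862 reached 89.6%, 85.3% and 74.96% at their lowest culture stage, pooled over both crosses.

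Zfp862, annotated as a transcribed unitary pseudogene, was called for a change in strain bias between ESCs and day 21, alone among 29 genes tested. Of the 8525 features tested, 9.24% were called toward B6 and 20.6% in either direction. At day 21 the B6 share of Zfp862 was 86.3% and 88.6% in BJ1 and 85.3% and 91.4% in JB6. In ESCs it was 76.9% and 78.2% in BJ1 and 73.3% and 72.2% in JB6. The day 21 libraries were all above the ESC libraries. The log2 ratio of B6 over JF1 was higher at day 21 by 1.23 ± 0.217 (SE, edgeR adjusted p = 0.000121). In cortex the share of Zfp862 ranged from 87.0% to 97.2%.

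**Figure D4:**
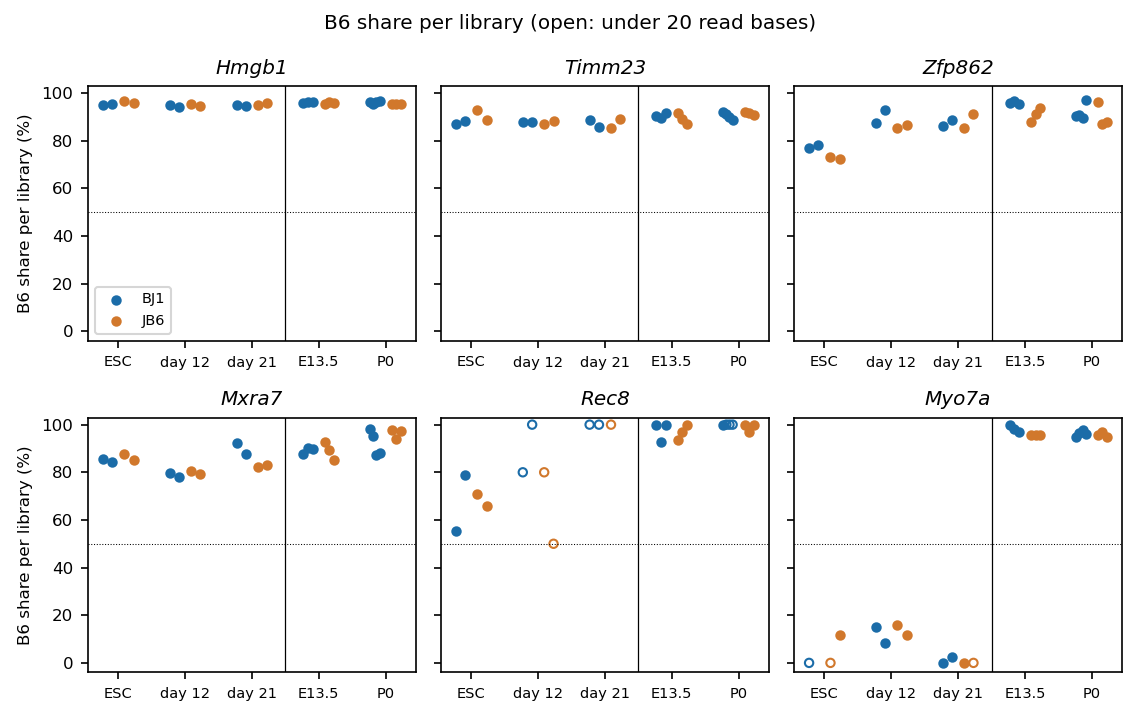
Each point is the B6 share of 1 library (vertical axis, percent) at the 5 stages, for 6 of the 46 genes, with BJ1 in blue and JB6 in orange; open points have fewer than 20 read bases and the dotted line marks 50%. Hmgb1 stays between 94.3% and 96.8%, Zfp862 is lowest in ESCs, Rec8 lies between 55.4% and 78.9% there, and Myo7a lies at or under 15.8% in culture and above 94% in cortex.

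Because the crosses are reciprocal, a share that differs between BJ1 and JB6 gives a parental term, here maternal over paternal; in culture parent and line cannot be told apart. In ESCs 2 of 32 genes passed, both paternal, against 1.4% of all features in either direction and 0.356% on the paternal side, and 4 were below an unadjusted p of 0.05. Ptma, the small acidic nuclear protein prothymosin alpha, was 96.3% and 96.2% B6 in BJ1 ESCs, where B6 is maternal, and 98.5% and 98.0% in JB6 ESCs, where B6 is paternal. Its log2 parental term was -0.59 ± 0.0732 (SE, edgeR adjusted p = 5.12e-06). The term of Hmgb1 was -0.22 ± 0.0542 (SE, edgeR adjusted p = 0.0302). It was -0.203, -0.249 and -0.149 without BJ1 ESC replicate 1, BJ1 ESC replicate 2 and JB6 ESC replicate 1, with adjusted p-values of 0.432, 0.31 and 0.331, so the call needs each of these libraries. Limma on log2 ratios called neither gene (adjusted p = 0.8 for Ptma and 0.924 for Hmgb1). At day 12 none of 32 genes passed in edgeR, against 1.78% of features, with 4 below an unadjusted p of 0.05, and at day 21 none of 33 passed, against 1.38%, with 2 below it. DESeq2 and limma called none at these stages either.

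Of the genes on chromosome 17, AA388235 was read in BJ1 culture and not in JB6 culture. It had 0 read bases in each of the 6 JB6 culture libraries, against 3 to 12 in each of the 6 BJ1 culture libraries, all of them B6. The JB6 level was at least 17.8-fold lower, taking 3 read bases over the JB6 group (0.0785 CPM) against 1.40 CPM pooled over BJ1. An exact two-sided permutation test within stages over 216 regroupings gave p = 0.00926, the smallest it can give, and 0.0185 adjusted over the 2 genes tested on this chromosome. Chromosome 17 was picked because an earlier analysis had found JB6 culture skewed there to the maternal allele, which is JF1. The p-value is therefore not independent of that choice. The regroupings also treat the 6 JB6 libraries as separate, though they may share 1 line. In cortex AA388235 was read in both crosses, with 47 to 106 read bases per library, and its pooled B6 share was 99.8% in BJ1 and 99.6% in JB6. Its neighbours B3galt4, Vps52, H2-K1 and Ring1 were 1.85% to 45.5% B6 in JB6 culture and 48.1% to 57.2% B6 in BJ1 culture, and no test was made of the neighbours. The other gene, the long noncoding RNA 2700054A10Rik, had 115 read bases in JB6 culture and 101 in BJ1 culture (exact permutation p = 0.694, adjusted 0.694).

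Of the 45 genes that could be placed in the GRCm38 gene order, 28 (62.2%) had all their nearest measured neighbours between 40% and 60% B6 in cortex, against 64.9% of the 9628 features placed. All neighbours lay between 20% and 80% for 39 of the 45 (86.7%), against 96.1% of the features placed. No test was run on these shares. Gm3002 and D830030K20Rik were the 2 with another of the 46 genes among their neighbours. Hmgb1 had Gm8615, the copy of Gnpda1 read from JF1, among its neighbours.

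The levels of these genes, both alleles summed, were compared between stages. In P0 against E13.5 cortex 11 of 46 were higher and 25 lower, against 40.1% and 41.4% of the 10871 features tested (81.6% in either direction), and the median log2 fold change was -0.49 for these genes and -0.02 for all. In day 12 cells against ESCs 5 of 33 were higher and 15 lower, against 34.5% and 32.9% of 10484 (67.4% in either direction), with medians of -0.39 and 0.02. In day 21 against day 12 cells 4 of 33 were higher and 17 lower, against 25.2% and 22.5% of 11255 (47.8% in either direction), with medians of -0.45 and -0.02. The cortex minimum that chose the genes was summed over E13.5 and P0, and the mean of 20 read bases over both stages of a comparison, so a gene read mainly at 1 stage could enter only by differing. Nothing is read from these counts and medians. In cortex 28 of the 46 reached 200 read bases per cross at each stage alone, and a cortex fold change is given only for such genes; for the other 18 the levels are a description with no test. In culture a fold change is given only for genes averaging 20 read bases or more per library at each stage of the comparison. All level tests used edgeR's quasi-likelihood test with Benjamini-Hochberg adjustment. In bulk tissue fewer cells of a type and less RNA per cell cannot be told apart.

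Hmgb1, Hmgn2 and H3f3a, the 3 genes with the most read bases, fell in cortex. Hmgb1 had 549 to 686 CPM (median 603) in the 7 P0 libraries, against 2037 to 2257 CPM (median 2114) in the 6 E13.5 libraries, and the groups did not overlap. Its log2 fold change was -1.72 ± 0.0675 (SE, adjusted p = 7.33e-14). Hmgn2, which binds nucleosomes, had 369 to 396 CPM (median 378) at P0, against 1471 to 1821 CPM (median 1568) at E13.5, a log2 fold change of -1.995 ± 0.061 (SE, adjusted p = 3.34e-15). H3f3a had 556 to 700 CPM (median 630) at P0, against 1133 to 1446 CPM (median 1332) at E13.5, and fell by 1.01 on the log2 scale (adjusted p = 6.25e-10). The libraries of Hmgn2 and those of H3f3a did not overlap between the cortex stages either. How many of all features separate in this way was not counted, and 81.6% of those tested were called between these stages. The splicing factor Hnrnpf had 238 to 295 CPM at P0, against 819 to 1048 CPM at E13.5, and fell by 1.72 (adjusted p = 3.56e-14). In culture Hmgb1 had 320, 353, 396 and 397 CPM at day 21, against 702, 600, 763 and 1009 CPM at day 12, and its log2 fold change was -1.11 ± 0.161 (SE, adjusted p = 9.29e-05).

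The adult alpha globins and 2 genes of lower level were also lower at P0. Hba-a1,Hba-a2 had 17.8 to 28.9 CPM at P0, against 57.0 to 288 CPM at E13.5, and fell by 2.83 ± 0.282 (SE, adjusted p = 1.32e-06). It had at most 1 read base in any culture library. The 6 detected markers of blood, vessels, meninges and microglia summed to 50.9 to 59.9 CPM at P0, against 45.4 to 234 CPM at E13.5, and the embryonic globins Hba-x and Hbb-bh1 were at 0 in every P0 library. The part of blood in the tissue in the globin result was not tested. Slfn9 had 0.562 to 1.91 CPM at P0, against 9.29 to 14.3 CPM at E13.5. Optc, an extracellular matrix proteoglycan known from the eye, had 3.57 to 6.27 CPM at P0, against 21.5 to 27.7 CPM at E13.5. Slfn9 and Optc reached the minimum at E13.5 alone and not at P0 alone.

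Of the genes higher at P0, the antisense transcript 4933431E20Rik had 31.0 to 38.6 CPM at P0, against 12.96 to 18.55 CPM at E13.5, and rose by 1.16 on the log2 scale (adjusted p = 1.4e-09). The other 3 named by size did not reach the minimum at E13.5 alone. D830030K20Rik had 6.86 to 12.1 CPM at P0, against 1.95 to 3.62 CPM at E13.5. Ensa, known as a regulator of a protein phosphatase, had 8.10 to 13.1 CPM at P0, against 2.37 to 4.402 CPM at E13.5. Ovgp1, named for a glycoprotein of the oviduct, had 7.42 to 16.02 CPM at P0, against 4.77 to 6.16 CPM at E13.5. Ovgp1 was also 82.3% B6 over its 209 read bases at E13.5, 1 of 3 genes pooled below 90% at that stage, with Timm23 at 89.9% and Mxra7 at 89.1%. At P0 the 3 genes pooled below 90% were Zfp783 at 88.4%, Optc at 86.5% and Slfn9 at 83.7%, the last over 43 read bases.

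From ESCs to day 12 the changes were large in a few genes. Rec8 had 0.949, 0.370, 0.773 and 0.232 CPM at day 12, against 11.8, 5.82, 9.97 and 7.90 CPM in ESCs. Gnpda1 had 19.7, 14.4, 20.3 and 16.8 CPM at day 12, against 105, 80.9, 107 and 80.1 CPM in ESCs, and fell by 2.62 ± 0.217 (SE, adjusted p = 3.18e-06). The libraries of Rec8 and those of Gnpda1 did not overlap between the stages. Such separation was not counted over all features, of which 67.4% were called. Idi1, an isomerase of cholesterol synthesis, had 18.8, 23.0, 38.8 and 21.7 CPM at day 12, against 85.005, 83.6, 29.6 and 122 CPM in ESCs, and fell by 1.88 (adjusted p = 0.00214). The chaperone Hspa8 had 174, 162, 214 and 265 CPM at day 12, against 451, 610, 552 and 473 CPM in ESCs, and fell by 1.61 (adjusted p = 3.99e-05). The groups overlapped for Idi1 and not for Hspa8. Mxra7 had 83.0, 112, 71.3 and 90.6 CPM at day 12, against 15.3, 9.80, 12.7 and 11.6 CPM in ESCs, and rose by 2.61 ± 0.217 (SE, adjusted p = 3.32e-06). D830030K20Rik had 9.63 to 18.9 CPM at day 12, against 0 to 1.73 CPM in ESCs. Hmgn2 rose by 1.16 ± 0.223 (SE, adjusted p = 0.000895), with 679, 604, 601 and 584 CPM at day 12, against 164, 278, 297 and 197 CPM in ESCs. Rec8 averaged fewer than 20 read bases per library at day 12, as did D830030K20Rik and 8430429K09Rik in ESCs. These genes passed the minimum through the other stage, so their levels are a description with no test.

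From day 12 to day 21 the genes named by size changed less. Zfp862 had 50.3, 47.0, 57.7 and 39.2 CPM at day 21, against 30.6, 28.7, 27.5 and 26.2 CPM at day 12, and rose by 0.73 ± 0.152 (SE, adjusted p = 0.00147). Xbp1, a transcription factor of the unfolded protein response, had 21.4, 22.4, 23.3 and 21.7 CPM at day 21, against 11.8, 12.2, 15.6 and 16.01 CPM at day 12, and rose by 0.63 (adjusted p = 0.0104). The day 21 libraries of both genes were above all day 12 libraries. Such separation was not counted over all features, of which 47.8% were called. Idi1 fell by 1.54 ± 0.261 (SE, adjusted p = 0.000316), and Npm3, of the nucleophosmin family, had 42.5, 53.8, 36.4 and 44.05 CPM at day 21, against 115, 91.3, 92.3 and 98.5 CPM at day 12, and fell by 1.22 ± 0.164 (SE, adjusted p = 4.89e-05). The rise of the autophagy gene Gabarapl2 by 0.61 (adjusted p = 0.0248) was lost without JB6 day 12 replicate 1 or JB6 day 21 replicate 2 (adjusted p = 0.083 and 0.0683). Gnpda1 rose by 0.50 (adjusted p = 0.0471), a call kept without JB6 day 12 replicate 1 and JB6 day 21 replicate 1 only, with adjusted p-values of 0.0514 to 0.15 without any of the other 6 libraries. Gm3002 fell by 1.197 (adjusted p = 0.0277), with adjusted p-values of 0.0863, 0.0871, 0.0868 and 0.0598 without BJ1 day 12 replicate 2, BJ1 day 21 replicate 1, BJ1 day 21 replicate 2 and JB6 day 21 replicate 2, and a log2 fold change of -1.84 without JB6 day 21 replicate 1. Between the JB6 and BJ1 lines in culture none of 32 genes differed in level in edgeR, against 0.0727% of the 11004 features tested, with 4 below an unadjusted p of 0.05 and none in DESeq2.

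**Figure D5:**
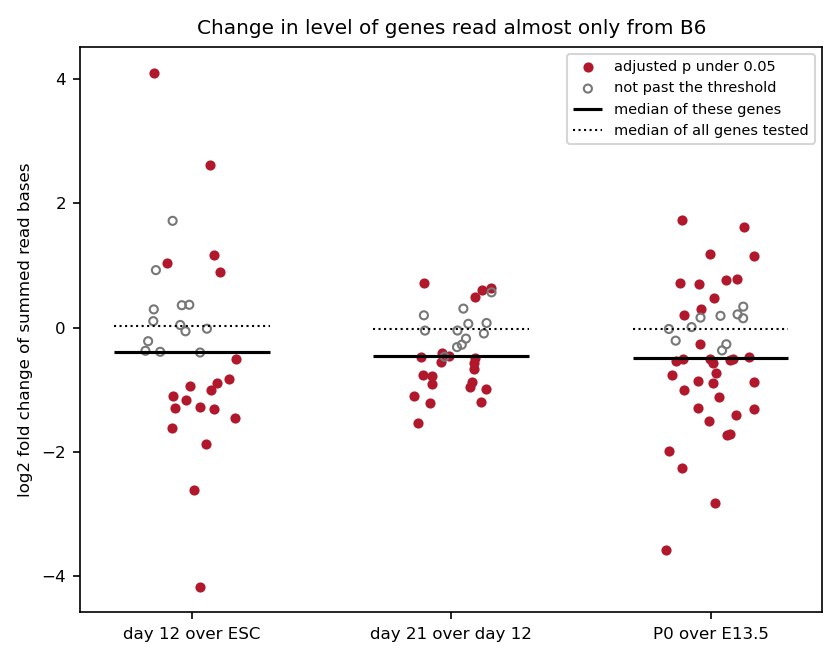
Each point is the log2 fold change in level of 1 of the 46 genes (vertical axis) in 3 comparisons of stages (horizontal axis): filled points passed an adjusted p of 0.05, the solid bar is the median of these genes and the dotted line the median of all genes tested. The medians of these genes are -0.39, -0.45 and -0.49, and nothing is read from them because genes read mainly at 1 stage could enter only by differing.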

How the data were processed

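Strand-specific RNA-seq libraries of 12 culture and 13 cortex samples were used. Per the authors' deposited description, bases at JF1 differences were read with SAMtools 0.1.18, assigned to genes with Annovar and summed per gene and allele, giving raw counts of sense read bases; the submitters' processing notes also name CASAVA 1.8.2, Novoalign, HTSeq, edgeR and the build mm9. How multiply aligned reads were treated is not given in the sources used here. The deposited counts were used unchanged, all value columns were mapped to samples (0 were not), and depth was 5192382 to 8618253 read bases.

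Strain and parent terms (1 term for each library, both alleles as columns) and levels (alleles summed, TMM scaling) were fitted with edgeR 4.0.16 in R 4.3.3 on features averaging 20 read bases or more per library, with Benjamini-Hochberg adjustment and a threshold of 0.05. The test was tested on simulated data. Copies were sought with blastn 2.17.0+ in GENCODE M21, whose symbols were matched to those of the tables. Alternatives were DESeq2 1.42.0, limma 3.58.1 on log2 ratios with a pseudocount of 0.5, other scalings and filters, counts divided by 3, each library left out, a replicate block and, for P0 against E13.5, female libraries only, the last chosen after seeing the data. Python 3.11.15 with pandas 2.3.3, numpy 2.4.6, scipy 1.17.1 and matplotlib 3.10.9 was used for the rest.

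Genes were named by read bases, covered differences, lowest culture share, parental term, chromosome 17, nearness to the 90% threshold, and size of level change (up to 4 per direction); copies listed in the tables and Dnajb6's culture share were singled out after their values were seen. The genes and lists were chosen with earlier results of these data known.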

Additional observations from a re-analysis of the deposited data

Results flagged for a closer look

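Within the 4 P0 BJ1 libraries, 6 of 70 sets of 4 values had 1 library far from the other 3 by Dixon's test, which chance alone gives in about 1 in 20 sets. In replicate 4 the level was 686 CPM for Hmgb1, 1.58 CPM for Slfn9 and 11.4 CPM for Xbp1, each the highest, and the B6 share of Gabarapl2 was 99.4%, the lowest. In replicate 1 the B6 share of Hspa8 was 99.9%, and in replicate 3 the level of Hba-a1,Hba-a2 was 17.8 CPM, the lowest. The flagged shares of Gabarapl2 and Hspa8 each rested on 1 JF1 read base, so the chance rate above does not hold for them.

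Effects that differed between groups were the strain bias of Zfp862, higher by 1.23 on the log2 scale at day 21 than in ESCs, and the ESC parental terms of Ptma and Hmgb1, -0.59 and -0.22. For Myo7a every culture library with read bases was under 50% B6, the highest at 15.8%, and every cortex library over 50%; this difference was not tested.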

How the results depend on the processing

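No result changed direction under any alternative run. The rule gave 46 genes, against 72 at a threshold of 80% and 33 at 95%. It gave 58 with 100 read bases per cross, 23 with 1000, and 39 to 46 without 1 cortex library. Asking for 90% at E13.5 and at P0 separately, with 100 read bases per cross at each stage, gave 31. The ESC parental term passed for 2 genes, for 1 with DESeq2, none with limma, 1 with counts divided by 3, and 1 to 3 without 1 library. The change in strain bias from ESCs to day 21 passed for 1 gene, and for 1 to 3 without 1 library: 3 without JB6 ESC replicate 2 and 2 without BJ1 day 21 replicate 2. Between lines the level passed for none, and for 1 with no filter on low counts. Strain calls in culture numbered 30 to 36 in ESCs, 29 to 37 at day 12 and 28 to 38 at day 21 over the alternatives. In the main fits these strain calls were 31 of 32, 31 of 32 and 32 of 33 genes tested. They were made for 26.1%, 20.5% and 19.6% of all features tested. Several alternatives also changed how many genes were tested, so the counts of calls given here are not compared as shares. With replicate number as a block, level calls numbered 18, against 20 without it, for day 12 over ESCs. They numbered 21 against 21 for day 21 over day 12, 36 against 36 for P0 over E13.5, and 0 between lines. Same-numbered libraries correlated at -0.315 to 0.141. With 2 libraries per culture group, these values cannot settle whether the numbers pair the samples. Level calls for day 21 over day 12 numbered 14 to 19 without 1 library. The causes were not tested. Genes with 1 covered difference or few read bases limit what can be said of single libraries.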
